A study of Mus musculus with 38 samples.

Results

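Histone modifications were examined at 10 genes of the formative and primed epiblast, the secreted ligand Fgf5, the transcription factors Otx2, Pou3f1, Zic2, Zic5, Sall2, Sox3 and Sox4, the intermediate filament protein Nes and the cadherin Cdh2. The genes were chosen by name, with earlier results of these data known, as 10 of the 21938 protein-coding genes of GENCODE M21. Each was read over its gene body and 5 kb on either side, called its window here. The cells were mouse embryonic stem cells (mESCs) of the ES-E14TG2a line, grown on gelatin with serum and leukaemia inhibitory factor (LIF) and taken at 0 h, before any differentiation. The IκBα-WT group carries the genotype IkappBalpha+/+ and had received a scrambled guide RNA, and the IκBα-KO group carries IkappBalpha-/-, made with CRISPR-Cas9 and guides in the first exon of Nfkbia, the gene for the NF-κB inhibitor IκBα. Each genotype had 3 clones, each grown from a single cell, and each of 5 modifications (H3K4me3, H3K27me3, H3K9me3, H3K27ac and H3K4me1) had 3 IκBα-WT and 3 IκBα-KO ChIP-seq libraries, which gives 30 region lists. Fgf5 lies at chr5:98254184-98277030, Otx2 at chr14:48657677-48673819, Pou3f1 at chr4:124656807-124660655, Zic2 at chr14:122475435-122479852, Zic5 at chr14:122456795-122465677 and Sall2 at chr14:52311172-52328762 (GRCm38). Sox3 lies at chrX:60891366-60893430, Sox4 at chr13:28948919-28953713, Nes at chr3:87971078-87980451 and Cdh2 at chr18:16588877-16809246. Fgf5, Pou3f1, Zic2 and Nes are on the plus strand and the other 6 on the minus strand, and the start of a gene means its 5′ end in this annotation. The lists hold no RNA, so the level of Nfkbia could not be used to check the labels.

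These genes mark the step that follows naïve pluripotency. Otx2 and Pou3f1 are transcription factors that act at enhancers as cells leave the naïve state, and Fgf5 is the classical marker of the early post-implantation epiblast. Zic2 and Zic5 are neighbouring zinc-finger factor genes used in early neural development, Sall2 is a further zinc-finger factor, and Sox3 and Sox4 are HMG-box factors, Sox3 being a factor of neural progenitors. Nes encodes nestin, a filament protein of neural progenitors, and Cdh2 encodes N-cadherin, which replaces E-cadherin in cells that leave an epithelium. In mESCs such genes often carry the Polycomb mark H3K27me3 and the promoter mark H3K4me3 together, a state called bivalent. H3K27ac marks active promoters and enhancers, H3K4me1 marks enhancers whether or not they are active, and H3K9me3 marks heterochromatin.

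The promoters differed in base composition. Sequences before some of the RefSeq starts are printed here so that a change at such a start can be read against them. The printed Otx2 sequence lies before a RefSeq start inside the gene, at chr14:48667644. It does not lie before the annotated Otx2 start, at chr14:48673819. RefSeq promoter entries (build GRCm38.p6) were found for 6 of the 10 genes (Fgf5, Otx2, Zic5, Sall2, Sox4 and Nes). All sequences run 5′ to 3′, end where the exons of the GENCODE annotation begin, and have their CG dinucleotides in capitals.
Fgf5, chr5:98253934-98254183, plus strand: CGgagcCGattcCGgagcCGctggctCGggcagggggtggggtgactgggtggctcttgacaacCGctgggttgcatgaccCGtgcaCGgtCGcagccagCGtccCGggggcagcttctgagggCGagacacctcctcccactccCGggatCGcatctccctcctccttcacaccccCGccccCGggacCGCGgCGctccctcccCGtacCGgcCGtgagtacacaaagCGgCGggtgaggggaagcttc
Otx2 (RefSeq start farthest upstream), chr14:48667645-48667894, minus strand: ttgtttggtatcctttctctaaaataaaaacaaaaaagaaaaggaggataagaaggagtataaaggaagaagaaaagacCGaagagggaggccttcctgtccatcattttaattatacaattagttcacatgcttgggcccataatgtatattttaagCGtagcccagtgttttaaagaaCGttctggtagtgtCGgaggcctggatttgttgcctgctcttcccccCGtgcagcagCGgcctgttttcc
Sall2 (upstream start), chr14:52328763-52328920, minus strand: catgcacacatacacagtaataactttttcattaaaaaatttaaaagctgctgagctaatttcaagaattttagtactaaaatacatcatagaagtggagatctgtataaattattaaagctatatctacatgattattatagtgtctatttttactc
Sall2 (internal start), chr14:52316324-52316573, minus strand: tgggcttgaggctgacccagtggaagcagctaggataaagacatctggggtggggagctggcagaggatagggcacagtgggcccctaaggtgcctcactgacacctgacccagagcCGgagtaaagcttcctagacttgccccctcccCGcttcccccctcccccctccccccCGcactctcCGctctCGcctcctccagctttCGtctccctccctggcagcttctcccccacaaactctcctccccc
Sox4, chr13:28953714-28953949, minus strand: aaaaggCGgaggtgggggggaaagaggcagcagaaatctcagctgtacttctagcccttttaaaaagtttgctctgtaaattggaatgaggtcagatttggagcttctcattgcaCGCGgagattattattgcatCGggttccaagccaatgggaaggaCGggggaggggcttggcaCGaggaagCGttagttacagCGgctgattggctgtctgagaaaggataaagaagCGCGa
Nes, chr3:87970843-87971077, plus strand: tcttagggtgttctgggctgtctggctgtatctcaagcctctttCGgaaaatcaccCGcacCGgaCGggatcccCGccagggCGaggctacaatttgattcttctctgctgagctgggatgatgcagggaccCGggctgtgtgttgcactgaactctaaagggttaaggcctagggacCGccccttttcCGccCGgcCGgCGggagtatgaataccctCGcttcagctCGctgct
In the 250 bases before the start, Fgf5 had 24 CG dinucleotides, a number that 12% of the 32851 promoter entries reach. Nes had 15, Zic5 and Sox4 each had 11, and the RefSeq start of Otx2 farthest upstream had 6, which is the median of all entries. Sall2 has a start upstream with 0 CG dinucleotides and 28.0% G and C, and an internal one with 6 CG dinucleotides and 64.4% G and C. Of all entries, 7.9% have no CG dinucleotide in this stretch.

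In IκBα-WT mESCs most of the genes carried both marks of the bivalent pair near the start. Within 1 kb of the annotated start, 9 of the 10 genes had both H3K4me3 and H3K27me3 calls in at least 2 of 3 libraries, against 23.6% of all protein-coding genes. The exception was Sall2, which had no H3K4me3 call there in any of the 6 libraries. In IκBα-KO mESCs 9 of the 10 genes again carried the pair, against 22.5% of all genes, with Sall2 once more the exception. The 2 marks need not lie on the same sequence under this rule. Of the window sequence under H3K4me3 in at least 2 of 3 IκBα-WT libraries, 31.3% at Otx2 and 48.7% at Sall2 was under H3K27me3. The share was 86.0% at Zic2, 92.4% at Sox4 and 100.0% at the rest. At Pou3f1 and Nes H3K27me3 covered the whole window in at least 2 of 3 libraries, so that 100.0% was fixed there. By the same rule H3K27ac lay within 1 kb of the start at 10 genes in IκBα-WT and 9 in IκBα-KO, where 60.1% and 58.2% of all genes had it. H3K4me1 lay there at 10 genes in each genotype, where 70.1% and 69.3% of all genes had it. H3K9me3 lay there at none of them in either genotype, against 6.1% of all genes in IκBα-WT.

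A list holds the regions called for 1 library. The H3K4me1 lists covered 476.05 to 487.76 Mb and the H3K27ac lists 380.45 to 419.25 Mb, the H3K27me3 and H3K9me3 lists covered 214.07 to 278.2 and 172 to 207.3 Mb, and the H3K4me3 lists 17.2 to 22.1 Mb. The H3K27ac lists counted 22943091 to 28339766 ChIP reads within calls, and every IκBα-KO list covered more sequence than every IκBα-WT list. The lists of the other marks with counts held 8910890 to 10938375 reads for H3K27me3, 8548342 to 12105343 for H3K9me3 and 34736939 to 35951506 for H3K4me1. Two-sided exact permutation tests of 3 against 3 libraries cannot give a p below 0.1 and so cannot pass 0.05, and a gene is described as separated where every IκBα-KO library lay on one side of every IκBα-WT library. The pluripotency factor genes Pou5f1 and Nanog, which define these cells, had 100.0% and 95.3% of their windows under H3K27ac in IκBα-WT and 100.0% and 94.9% in IκBα-KO. Of 5 such markers 1 (Esrrb) was separated upwards, of 3 primitive endoderm markers (Gata4, Gata6 and Sox17, at 13.1% to 24.2% of the window in IκBα-WT) 0 were separated, and of 3 fibroblast markers (Col1a1, Col1a2 and Thy1) 1 (Thy1) was separated downwards. Col1a2 was nearly free of H3K27ac, at 0.8% and 0.0%, while Col1a1 had 78.1% and 71.2%. The part of such cells in the results was not tested.

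H3K27ac had the most separated genes among the 10. At 6 of the 10, Fgf5, Otx2, Pou3f1, Zic5, Sall2 and Nes, every IκBα-KO library had less covered sequence than every IκBα-WT library, and at none was it the other way round. Of the 16607 protein-coding genes with any H3K27ac call, 8.2% were separated downwards and 21.6% upwards. The median change over the 10 windows was -25.9%, against a median of 4.3% over all genes covered in IκBα-WT. Leaving out 1 library cannot undo a separation, so these 6 genes stayed separated, and Sox4 was separated upwards without IκBα-WT replicate 3. Over the gene body alone the number separated downwards was 4, and the share of all genes was not counted. Within 1 kb of the start it was 1 of the 10, where 3.09% of 14386 genes were separated downwards.

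Fgf5 had 6030, 5400 and 5030 bp under H3K27ac in the 3 IκBα-WT libraries and 1600, 3600 and 0 bp in the 3 IκBα-KO libraries. The means were 5487 ± 506 and 1733 ± 1804 bp (SD, n = 3 each), a change of -68.4% (exact permutation test, two-sided p = 0.1, the lowest value the design allows). All 3 IκBα-KO values were below the lowest IκBα-WT value, and they were spread widely, from none to 3600 bp. The Fgf5 start, in the CG-rich sequence printed above, was under H3K27ac in 3 of 3 IκBα-WT and 2 of 3 IκBα-KO libraries and under H3K27me3, H3K4me3 and H3K4me1 in all 6 libraries of each mark.

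Among the homeodomain and POU factors, Otx2 had 18524, 16924 and 20124 bp in IκBα-WT and 15924, 11724 and 12524 bp in IκBα-KO, a change of -27.7% (exact p = 0.1). Its annotated start was under H3K27ac in 2 of 3 IκBα-WT and 0 of 3 IκBα-KO libraries, while its innermost RefSeq start was covered in all 6. The RefSeq start of Otx2 whose sequence is printed above was covered in 3 of 3 IκBα-WT and 2 of 3 IκBα-KO libraries. Pou3f1 had 11394, 10794 and 10594 bp in IκBα-WT and 8249, 8849 and 7594 bp in IκBα-KO, a change of -24.7% (exact p = 0.1). The start of Pou3f1 was covered in all 6 libraries. A stretch of 1000 bp in the 3′ flank, chr4:124661601-124662600, was called in 3 of 3 IκBα-WT and 0 of 3 IκBα-KO libraries.

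Among the zinc-finger factors, Sall2 had the steepest fall of the 10. It had 12629, 12629 and 12429 bp in IκBα-WT and 6429, 4029 and 229 bp in IκBα-KO, a change of -71.6% (exact p = 0.1). The IκBα-WT libraries were within 200 bp of each other and the IκBα-KO libraries were spread. Zic5 had 14883, 15683 and 15883 bp in IκBα-WT and 14083, 14083 and 14283 bp in IκBα-KO, which was separated but by only -8.6%. Zic2 was covered along the whole 14418 bp of its window in all 6 libraries, so that covered sequence could not show a difference there.

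At Nes, 14451, 13451 and 14251 bp in IκBα-WT stood against 11600, 9251 and 9851 bp in IκBα-KO, a change of -27.2% (exact p = 0.1). A stretch of 600 bp within a coding exon, chr3:87977401-87978000, was called in IκBα-WT alone, in 3 of 3 libraries. At Cdh2 the groups overlapped, with 18200, 28200 and 19800 bp against 20800, 18400 and 26000 bp. Sox3 had 3800, 1600 and 2000 bp against 2200, 2200 and 0 bp, which also overlapped. Sox4 had 13795, 13595 and 14795 bp against 14795 bp in each IκBα-KO library, and was the one gene with a higher IκBα-KO mean (exact p = 0.4).

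**Figure D1:**
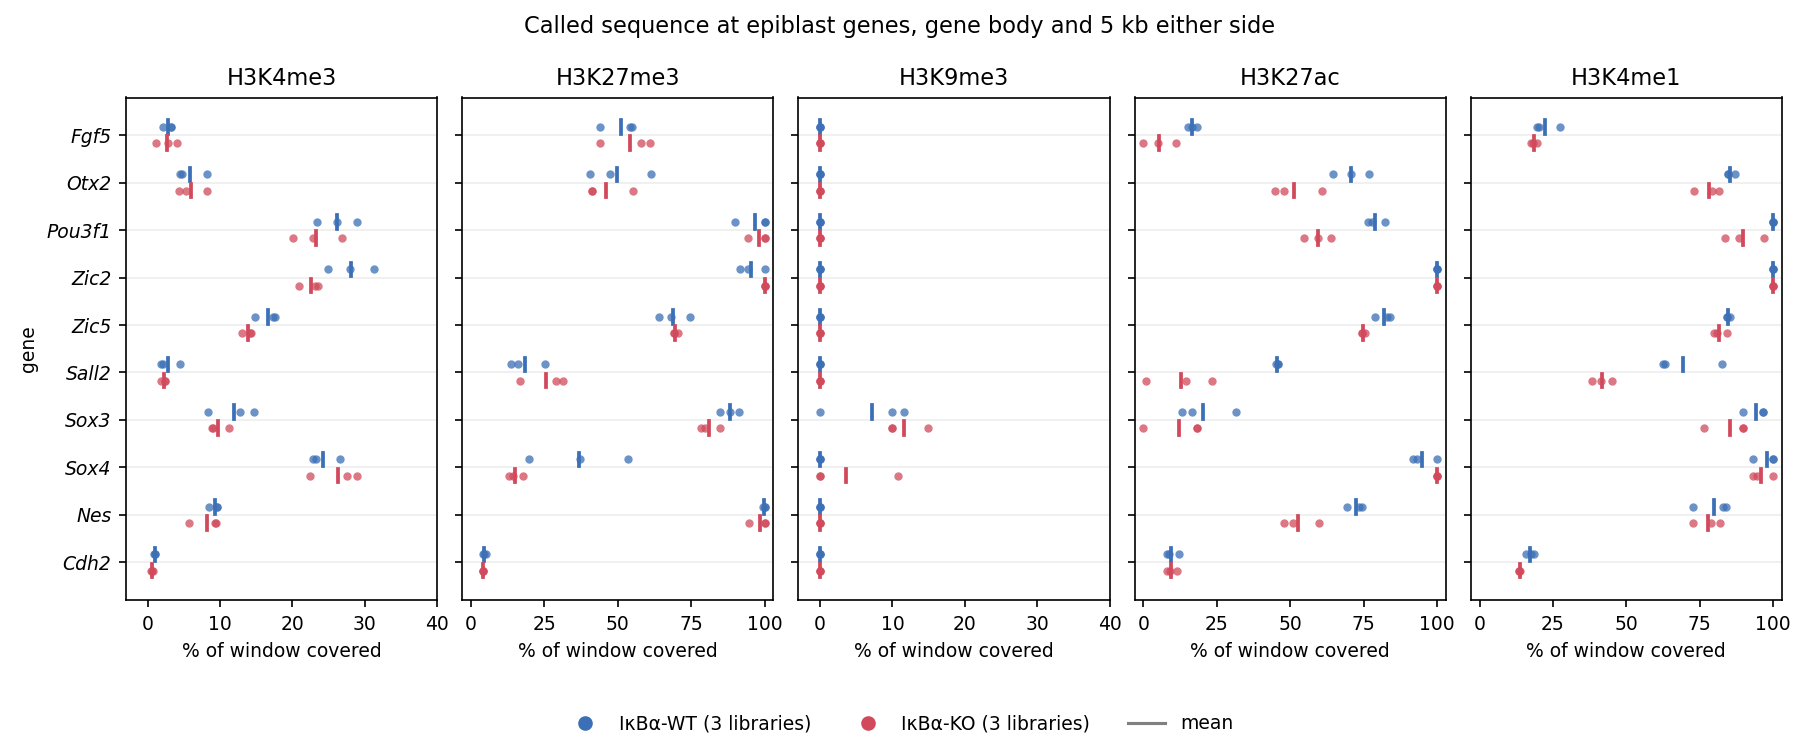
Share of each gene's window (percent, x axis; the scale ends at 40% for H3K4me3 and H3K9me3) covered by calls of 5 histone modifications, 1 point per library and a bar at the mean of 3, blue for IκBα-WT and red for IκBα-KO. Under H3K27ac the red points lie below the blue ones at Fgf5, Otx2, Pou3f1, Zic5, Sall2 and Nes, and under H3K27me3 only Sox4 is separated.

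The ChIP reads in the calls gave a test across all genes. In the first of 2 forms, reads were taken per length of the calls that touch a window, so that a call that shrinks at the same density does not count as a change. By edgeR's quasi-likelihood test, 8 of the 10 genes could be tested, since Fgf5 and Sox3 had no call in IκBα-KO replicate 3. At an adjusted p under 0.05, 3 fell (Pou3f1, Zic2 and Zic5) and 0 rose, where 2.37% of the 14625 genes tested fell and 6.99% rose (346 and 1022 genes). The scaling of the libraries set that split, since with TMM factors from the counts as deposited 5078 genes fell and 415 rose, the median of all genes moved to -0.18 on the log2 scale, and 7 of the 8 genes fell. With library sizes alone 805 genes fell and 639 rose, and 3 of the 8 fell. The median log2 fold change was -0.16 over the 8 genes and -0.01 over all genes.

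Pou3f1 had 65.4, 62.3 and 63.3 reads per kb of calls in IκBα-WT and 57.7, 56.8 and 51.6 in IκBα-KO, a log2 fold change of -0.23 ± 0.05 (SE; edgeR adjusted p = 0.0304). These calls ran far beyond its window of 13849 bp, with 28800, 61800 and 62800 bp in IκBα-WT and 28800, 34600 and 59200 bp in IκBα-KO. The density therefore also reflects sequence outside the window, and the calls at Zic2 and Zic5 ran beyond their windows too. Zic2 had 83.3, 89.9 and 96.6 in IκBα-WT and 76.1, 81.8 and 65.7 in IκBα-KO, a log2 fold change of -0.30 ± 0.05 (adjusted p = 0.0125, edgeR). Zic5 had 74.8, 80.5 and 85.0 against 70.0, 71.3 and 62.5, a log2 fold change of -0.26 ± 0.04 (adjusted p = 0.0088, edgeR). Zic2 and Zic5 are not independent here, because their starts lie 9758 bp apart and 100.0% of the H3K27ac reads assigned to Zic2 came from calls that also touch the Zic5 window, in all 6 libraries. IκBα-KO replicate 3 was lowest at each of these 3 genes, and it was also the shallowest IκBα-KO library, with 58.4 reads per kb over all its calls against 67.6 and 68.1 in the other two. Without it Zic2 and Zic5 still fell and Pou3f1 did not pass (adjusted p = 0.0548, edgeR). The call at Pou3f1 was also lost without IκBα-WT replicate 1 or 2 and without IκBα-KO replicate 1 or 2, at adjusted p from 0.074 to 0.0933 by edgeR, with log2 fold changes of -0.24 to -0.19.

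At the other 5 genes the adjusted p did not pass. Nes had a log2 fold change of -0.17 ± 0.06 (edgeR adjusted p = 0.128), Otx2 of -0.15 ± 0.09, Sox4 of -0.14 ± 0.07 and Cdh2 of -0.06 ± 0.07. Sall2 went the other way at 0.24 ± 0.11 (edgeR adjusted p = 0.246). The calls that touch its window had 48.9, 52.2 and 56.4 reads per kb in IκBα-WT and 59.9, 61.8 and 69.3 in IκBα-KO. These calls ran beyond the window too. They were 15400, 14800 and 14600 bp long in IκBα-WT, with 12629, 12629 and 12429 bp inside it. In IκBα-KO they were 9200, 6200 and 3000 bp long, with 6429, 4029 and 229 bp inside it. The density at Sall2 therefore also reflects sequence outside the window, most of all in IκBα-KO replicate 3. By the spread of libraries alone, density was separated upwards at Sall2 and downwards at Pou3f1, Zic2 and Zic5, where 9.59% of genes were separated upwards and 6% downwards.

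In the second form, the reads of each call were shared out by overlap with the window and no length entered, so that lost sequence counts. Of the 8 genes tested, 5 fell (Otx2, Pou3f1, Zic2, Zic5 and Nes) and 0 rose, where 10.2% of 14624 genes fell and 13% rose. Otx2 had 46.9, 43.0 and 50.3 reads per kb of window in IκBα-WT and 32.6, 29.4 and 26.7 in IκBα-KO, a log2 fold change of -0.80 ± 0.09 (edgeR adjusted p = 0.000827). Nes had 37.6, 40.4 and 42.3 against 30.5, 23.6 and 22.1, a log2 fold change of -0.80 ± 0.13 (edgeR adjusted p = 0.00465). Pou3f1 fell by 0.69 on the log2 scale (SE 0.12, edgeR adjusted p = 0.00461).

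Sall2 had 21.7, 22.7 and 25.2 reads per kb of window in IκBα-WT and 12.2, 7.68 and 0.58 in IκBα-KO. The fitted log2 fold change of -1.96 ± 0.74 was the most negative of the 8 but did not pass (edgeR adjusted p = 0.102), and the spread among the IκBα-KO libraries was wide. Fgf5 had 10.1, 8.40 and 8.77 reads per kb of window in IκBα-WT and 2.71, 5.51 and 0 in IκBα-KO, and was not fitted. Reads outside a call are not in these lists, so a stretch that misses the calling threshold counts as 0 in this second form.

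**Figure D2:**
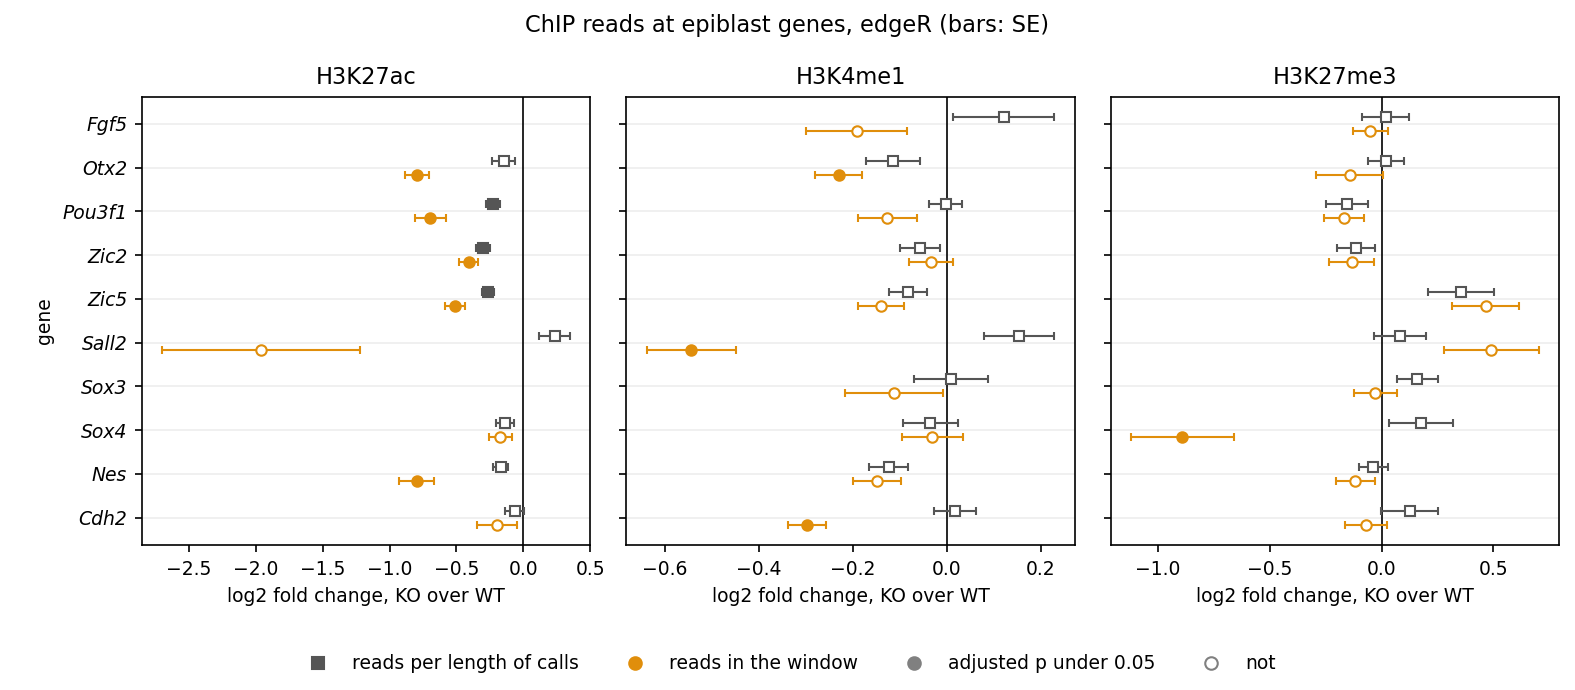
Log2 fold change of ChIP reads, IκBα-KO over IκBα-WT (x axis), with its SE, for H3K27ac, H3K4me1 and H3K27me3 at each gene. Squares are reads per length of calls and circles reads in the window, filled where the adjusted p of edgeR is under 0.05. For H3K27ac the filled circles lie between -0.80 and -0.41, and Sall2 has its square above 0 and its circle at -1.96.

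Sall2 was the only one of the 10 whose start was called in 3 of 3 IκBα-WT and 0 of 3 IκBα-KO H3K27ac libraries. The start of Pou3f3, a paralogue of Pou3f1, had the same pattern, and its share over all genes was not counted. The Sall2 stretch called in IκBα-WT alone was 3600 bp long, chr14:52325601-52329200. It ran from 438 bp before the annotated start to 3161 bp into the gene, over the first exon and part of the first intron. It holds the start whose upstream sequence, printed above, has no CG dinucleotide. Within 1 kb of this start H3K27ac covered 1839, 2001 and 2001 bp in IκBα-WT and 562, 562 and 0 bp in IκBα-KO, the one separated gene of the 10 in that zone, where 3.09% of 14386 genes were separated downwards and 2.41% upwards. At Pou3f1 H3K27ac covered that whole zone in all 6 libraries, so that no difference could show there. The internal RefSeq start of Sall2, the richer in G and C, was under H3K27ac in 3 of 3 IκBα-WT libraries and 1 of 3 IκBα-KO libraries.

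H3K4me1 at Sall2 kept the annotated start in all 6 libraries and fell inside the gene. The mark covered 22791, 17200 and 17400 bp in IκBα-WT and 11400, 10600 and 12429 bp in IκBα-KO, a change of -40.0% (exact p = 0.1). A stretch of 3600 bp in the first intron, chr14:52316801-52320400, 8362 to 11961 bp into the gene, was called in 3 of 3 IκBα-WT and 0 of 3 IκBα-KO libraries. H3K27me3 at Sall2 covered 3800, 4400 and 7000 bp in IκBα-WT and 8600, 8000 and 4600 bp in IκBα-KO, and the groups overlapped. H3K4me3 covered no more than 1245 bp of the window in any library.

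**Figure D3:**
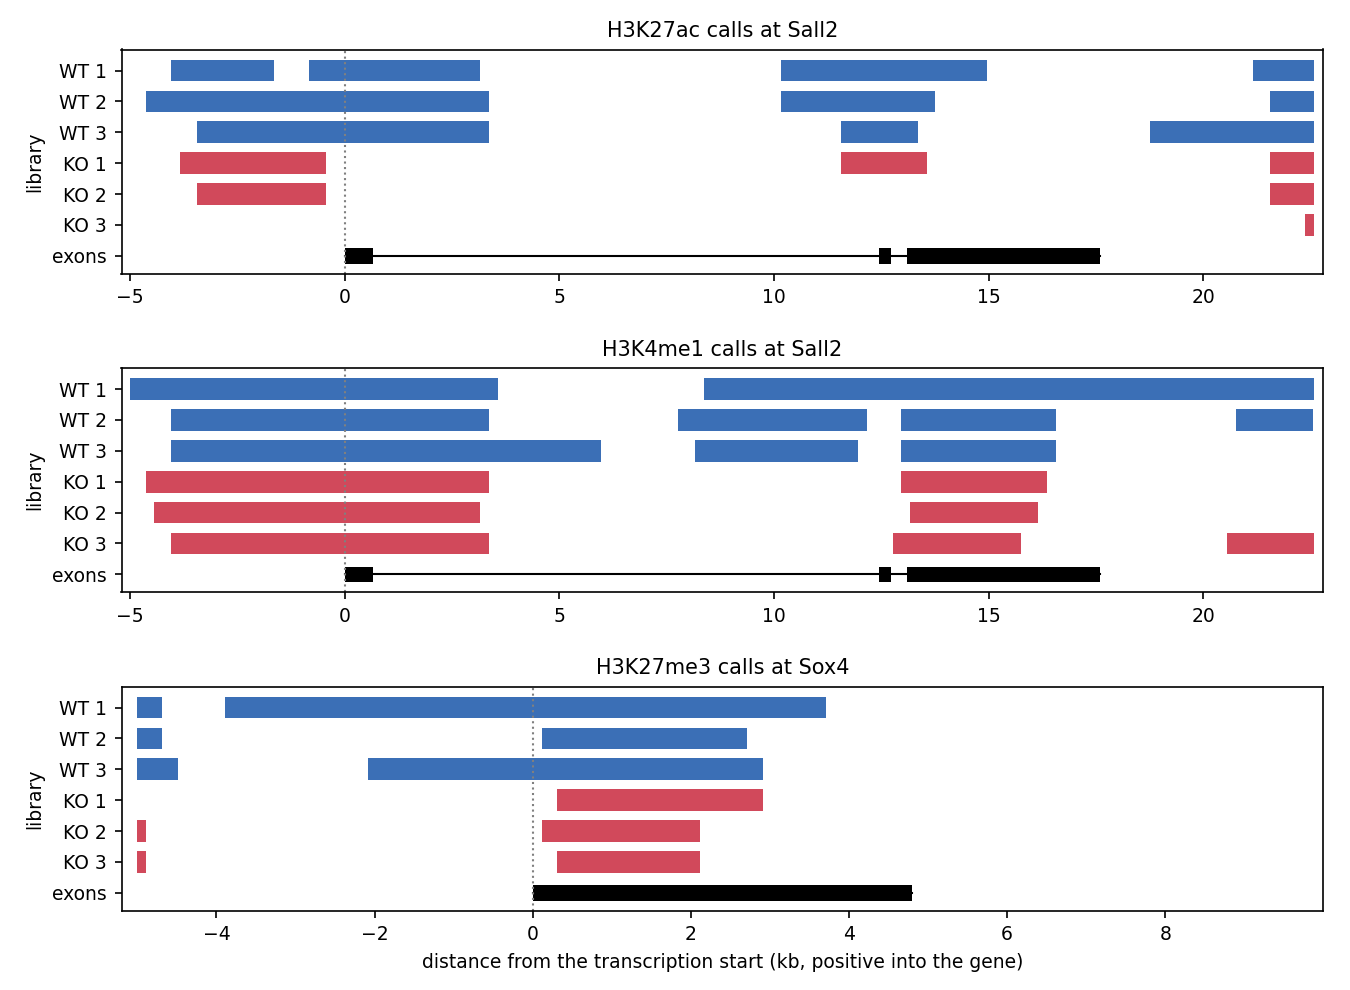
Calls in each library around Sall2 (H3K27ac and H3K4me1) and Sox4 (H3K27me3), drawn to scale against the distance from the annotated start (kb, x axis, positive into the gene), blue for IκBα-WT, red for IκBα-KO and black for exons. The H3K27ac call over the Sall2 start is present in the 3 IκBα-WT rows and absent from the 3 IκBα-KO rows, of which replicates 1 and 2 have a call ending 439 bp before the start. The IκBα-KO H3K27me3 calls nearest the Sox4 start begin 113 to 313 bp inside the gene.

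H3K4me1 was separated downwards at 4 of the 10 genes (Otx2, Pou3f1, Sall2 and Cdh2) and upwards at 0. The backgrounds were 15.4% downwards and 11.7% upwards of 17552 genes. Otx2 had 22124, 22724 and 22124 bp in IκBα-WT and 21324, 19124 and 20724 bp in IκBα-KO (-8.7%). Pou3f1 was covered over all 13849 bp in each IκBα-WT library and over 12249, 13394 and 11594 bp in IκBα-KO (-10.4%). Cdh2, the longest of the genes, had 42400, 40000 and 36800 bp against 32000, 31000 and 31200 bp (-21.0%). Zic2 was covered throughout in all 6 libraries, and Fgf5, Zic5, Sox3, Sox4 and Nes overlapped. Within 1 kb of the start 0 of the 10 were separated, where 7.67% of 15987 genes were separated downwards and 0.632% upwards. At Fgf5 and Otx2 H3K4me1 covered this whole zone in all 6 libraries, so that no difference could show there.

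Per length of calls, no H3K4me1 change at any of the 10 genes passed the test (0 of 10 by edgeR, with 1 at an unadjusted p under 0.05, and 0 by DESeq2), where 2.66% of 16679 genes fell and 5.62% rose (443 and 937 genes, against 752 and 770 with library sizes alone and 239 and 1393 with TMM factors from the counts as deposited). The nearest was Nes, at 100.2, 99.1 and 106.0 reads per kb in IκBα-WT and 92.0, 90.2 and 92.6 in IκBα-KO (log2 fold change -0.12 ± 0.04, edgeR adjusted p = 0.105). For reads in the window, 3 genes fell and 0 rose, where 12.9% of 16678 genes fell and 17.4% rose. They were Otx2 at -0.23 ± 0.05 (edgeR adjusted p = 0.0102), Sall2 at -0.54 ± 0.10 (edgeR adjusted p = 0.0038) and Cdh2 at -0.30 ± 0.04 (edgeR adjusted p = 0.001). Per length of calls the fitted log2 fold changes of Sall2 and Cdh2 were 0.15 ± 0.08 and 0.02 ± 0.05, and neither passed.

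H3K4me3 was separated downwards at 3 genes (Zic2, Zic5 and Cdh2) and upwards at 0, where 7.25% of 15151 genes were separated downwards and 24.5% upwards. Zic2 had 4513, 3597 and 4029 bp in IκBα-WT and 3016, 3323 and 3393 bp in IκBα-KO (-19.8%). Its neighbour Zic5 had 3270, 2800 and 3327 bp against 2670, 2471 and 2704 bp (-16.5%). Cdh2 had 2421, 2445 and 2034 bp against 1036, 1494 and 1751 bp (-38.0%). Over the gene body without its flanks, Zic2 was separated downwards, Zic5 and Cdh2 overlapped, and Sox4 was separated upwards, at 2885, 2630 and 2638 bp against 2887, 3284 and 3357 bp. The share of all genes over the gene body was not counted. Within 1 kb of the start 0 of the 10 genes were separated, where 7.14% of 13259 genes were separated downwards and 17.6% upwards. The start itself was under H3K4me3 in 3 of 3 IκBα-WT libraries and 1 of 3 IκBα-KO libraries at Zic2, and in 3 and 2 at Zic5 and Sox4 and 2 and 1 at Cdh2. It went the other way at Otx2 (1 and 2), Pou3f1 (2 and 3) and Nes (2 and 3), and over all genes the start was covered in 3 of 3 libraries at 31.9% in IκBα-WT and 35.1% in IκBα-KO.

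The highest fold enrichment of any H3K4me3 peak in the window, which the lists give in place of counts, was separated at 2 genes, in opposite directions. Of 13533 genes, 13.1% were separated downwards and 20.4% upwards. Pou3f1 had 14.1, 12.3 and 14.4 in IκBα-WT and 9.45, 10.2 and 10.8 in IκBα-KO (-25.3%, exact p = 0.1). Nes had 5.78, 4.93 and 6.40 in IκBα-WT and 7.49, 7.01 and 14.1 in IκBα-KO (66.8%, exact p = 0.1), with IκBα-KO replicate 3 far above the other libraries and a mean of 7.25 without it. The number of separated genes was 5 without IκBα-WT replicate 2 and 6 without IκBα-KO replicate 2, and Pou3f1 and Nes were among them each time. With the mean enrichment of the peaks weighted by length, Pou3f1, Otx2 and Cdh2 were separated downwards and 0 genes upwards, and Nes overlapped (exact permutation p = 0.2). The shares of all genes were not counted for these alternatives. At Zic2 and Zic5, where covered sequence was lower in IκBα-KO, the highest enrichment was 12.6 ± 3.3 and 14.2 ± 1.8 in IκBα-WT and 16.3 ± 2.6 and 16.1 ± 3.8 in IκBα-KO (SD, n = 3 each), and overlapped.

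H3K27me3 went both ways over the 10 genes. Mean covered sequence was lower in IκBα-KO at 5 and higher at 5, from -59.4% at Sox4 to 39.5% at Sall2, with a median of -0.2% against 1.0% over all genes. By the spread of libraries, 1 gene (Sox4) was separated downwards and 0 upwards, where 7.61% of 13437 genes were separated downwards and 10.9% upwards. Nes, the most densely marked, was covered over 99.8% of its window in IκBα-WT and 98.3% in IκBα-KO, at 112.7 ± 4.2 and 109.8 ± 11.6 reads per kb of calls. Pou3f1 and Zic2 were covered over 96.6% and 95.4% in IκBα-WT and over 98.1% and 100.0% in IκBα-KO. Fgf5, with 51.0% and 54.2%, and Otx2, with 49.7% and 45.9%, also overlapped between the genotypes. Within 1 kb of the start 0 of the 10 were separated, where 2.99% of 9421 genes were separated downwards and 3.07% upwards. At Fgf5 and Pou3f1 H3K27me3 covered this whole zone in all 6 libraries, so that no difference could show there.

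Sox4 had 7913, 2913 and 5513 bp under H3K27me3 in IκBα-WT and 2600, 2113 and 1913 bp in IκBα-KO, a change of -59.4% (exact p = 0.1). The IκBα-WT libraries were widely spread, and the lowest of them, at 2913 bp, was close to the highest IκBα-KO library, at 2600 bp. Leaving out 1 library cannot undo the separation of Sox4. Up to 3 further genes were then separated (4 genes in all without IκBα-WT replicate 3 or IκBα-KO replicate 3, and 2 without IκBα-WT replicate 1 or 2 or IκBα-KO replicate 2). The start was covered in 2 of 3 IκBα-WT and 0 of 3 IκBα-KO libraries, while H3K27ac covered it in all 6. Reads in the window fell from 17.1, 11.1 and 16.2 per kb to 7.98, 8.81 and 8.38, a log2 fold change of -0.89 ± 0.23 (edgeR adjusted p = 0.0451), the 1 gene of 10 to fall where 6.44% of 9731 genes fell and 5.95% rose. Per length of calls Sox4 was 0.18 ± 0.14 higher in IκBα-KO and did not pass. That test called 0 of the 10 genes in edgeR and 0 in DESeq2, with 1 at an unadjusted p under 0.05 in each, and 1.05% of 9733 genes rose and 0.524% fell (with TMM factors from the counts as deposited 48 rose and 146 fell).

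Zic5 was the gene at that unadjusted p. It had 44.3, 61.6 and 42.1 H3K27me3 reads per kb of calls in IκBα-WT and 57.9, 61.5 and 71.0 in IκBα-KO, which overlapped (log2 fold change 0.36 ± 0.15, edgeR adjusted p = 0.3). In the window it had 25.9, 29.8 and 30.4 reads per kb against 40.3, 34.7 and 48.7, with every IκBα-KO library higher (log2 fold change 0.46 ± 0.15, edgeR adjusted p = 0.0855). These values move with the neighbouring Zic2, because a call that touches both windows held all H3K27me3 reads of Zic2 in the 3 IκBα-KO libraries (2467, 2187 and 2379) and in IκBα-WT replicate 2 (1967), but 242 of 1812 and 478 of 2224 in IκBα-WT replicates 1 and 3. The part of this sharing in the Zic5 values was not tested.

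H3K27ac and H3K27me3 were called over the same sequence at several of the genes. Of the sequence under H3K27ac in at least 2 of 3 IκBα-WT libraries, 100.0% at Pou3f1, Nes and Sox3, 95.4% at Fgf5, 94.5% at Zic2 and 80.9% at Zic5 was also under H3K27me3. At Otx2 it was 44.6%, at Sox4 35.9%, at Cdh2 15.1% and at Sall2 8.0%. At Pou3f1 and Nes H3K27me3 covered the whole window in at least 2 of 3 IκBα-WT libraries, so that 100.0% was fixed there. At Zic2 H3K27ac covered the whole window, so that the share is that of H3K27me3 alone. The shares over all genes were not counted. In IκBα-KO the share at Sox4 was 12.9%. The lists come from bulk cells, so marks on the same molecule and marks in different cells of the culture cannot be told apart.

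H3K9me3 was nearly absent. Calls lay in the windows of Sox3 and Sox4 and of no other of the 10. Sox3, on the X chromosome, had 0, 1400 and 1200 bp in IκBα-WT and 1200, 1800 and 1200 bp in IκBα-KO, and Sox4 had 1600 bp in IκBα-KO replicate 1 and 0 elsewhere. Input reads per kb of the Sox3 calls, relative to all H3K9me3 calls, were also higher in IκBα-KO, by 0.97 on the log2 scale, with 1 input library per genotype. None of the 10 was separated (the backgrounds were 4.76% upwards and 11.4% downwards of 12110 genes), and none had a call in all 6 libraries, so none entered the read test, in which 0.261% of 6130 genes rose and 0.832% fell.

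None of the 10 windows was marked throughout one genotype and free of the mark throughout the other, for any of the 5 modifications. Across all genes such windows marked in IκBα-WT alone were 1.01% for H3K27ac, 0.287% for H3K4me1, 0.251% for H3K4me3, 0.675% for H3K27me3 and 1.19% for H3K9me3. In IκBα-KO alone they were 0.132%, 0.1%, 0.273%, 0.447% and 0.346% in the same order. Shorter stretches did differ in this way. Of at least 200 bp there were 14 within the windows, 13 called in all IκBα-WT and no IκBα-KO libraries and 1 the reverse. Over the windows of all genes there were 18366 and 24416 such stretches, so that the reverse kind was the more frequent. H3K27ac stretches in IκBα-WT alone lay in 5 of the 10 windows (Pou3f1, Zic5, Sall2, Nes and Cdh2) and in 12% of all windows, and in IκBα-KO alone in 0 of the 10 and 22.3% of all. For H3K4me1 they lay in 4 of the 10 and 23.5% of all windows in IκBα-WT alone, and in 0 and 16.6% in IκBα-KO alone. For H3K4me3 the numbers were 2 of the 10 and 1.91% in IκBα-WT alone, and 1 and 7.04% in IκBα-KO alone. For H3K27me3 they were 1 and 8.67%, and 0 and 11.5%, and for H3K9me3 0 and 9.55%, and 0 and 4.7%. The one in IκBα-KO alone was 230 bp of H3K4me3 in the flank of Otx2. The longest were the Sall2 stretches of 3600 bp, then 1800 bp of H3K27ac in an intron of Cdh2 and 1200 bp of H3K4me1 before the start of Nes.

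Related genes were counted beside the 10. Of 16 other genes of the formative or primed epiblast, H3K27ac covered sequence was separated downwards at 3 (Dnmt3b, Lef1 and Pim2) and upwards at 1 (Dnmt3a), and of 17 close paralogues downwards at 2 (Zic4 and Pou3f3) and upwards at 1 (Cdh1). By H3K27ac reads per length of calls, 3 of the 16 fell and 3 rose by edgeR, with Dnmt3b, the de novo DNA methyltransferase of the epiblast, at -0.41 ± 0.04 (adjusted p = 0.000794). Fgf15, a secreted ligand, rose by 0.62 ± 0.07 (edgeR adjusted p = 0.00174), as did Etv4 and Tead2 by 0.38 and 0.31, and Lef1 and Grhl2 also fell. Of 15 paralogues tested, Sall1 and Cdh1 rose and Otx1 fell. By reads in the window, 6 of the 16 fell (Dnmt3b, Lef1, Sox11, Grhl2, Etv5 and Pim2) and 2 rose (Tead2 and Dnmt3a), with a median log2 fold change of -0.13, and Fgf15 and Etv4 did not pass (edgeR adjusted p = 0.149 and 0.15). In the same form 6 of the 15 paralogues fell (Pou3f3, Zic1, Zic4, Otx1, Sox11 and Sall3) and Cdh1 alone rose, with a median of -0.32, where the 8 genes had 5 lower and a median of -0.60. Cdh1 is the E-cadherin gene and counterpart of Cdh2. It rose by 0.22 ± 0.03 per length of calls (edgeR adjusted p = 0.0036) and by 0.15 ± 0.03 in the window (edgeR adjusted p = 0.0124). For H3K4me3 covered sequence 5 of the 16 were separated upwards and 2 downwards, and 6 of the 17 paralogues upwards and 1 downwards, where the 10 genes had 0 and 3. The difference between these lists was not tested.

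Over the 30 libraries, the genes whose covered shares were closest to Otx2 were Impdh1 and Arrdc1, at Euclidean distances of 0.376 and 0.390, and the closest to Fgf5 were Bdnf and Ptpre, at 0.262 and 0.270. Impdh1 had 66.3% of its window under H3K27ac in IκBα-WT and 65.3% in IκBα-KO, and Arrdc1 had 69.9% and 51.2%, close to the 70.9% and 51.2% of Otx2. Bdnf had 14.8% and 11.7%, where Fgf5 had 16.7% and 5.3%. These shares entered the distances, so likeness in them follows from how the genes were picked.

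Input reads, of which there was 1 library per genotype and experiment and so no replicate, differed little at most of these genes. Relative to all calls of a list, the log2 ratio of IκBα-KO over IκBα-WT input per kb of H3K27ac calls lay between -0.12 (Otx2) and 0.10 (Fgf5) at 9 of the 10 genes, with -0.01 at Sall2 and Nes. Sox3 was the exception at -0.63, with -0.34 for H3K4me1, 0.54 for H3K27me3 and the 0.97 for H3K9me3 given above. With the input as part of the offset, Sox3 H3K4me1 rose by 0.31 ± 0.08 (edgeR adjusted p = 0.0302), where it was 0.01 ± 0.08 without, and Sox3 H3K27me3 fell by 0.41 on the log2 scale (SE 0.09, edgeR adjusted p = 0.0363), where it was 0.16 ± 0.09 without. Zic5 H3K4me1 fell by 0.14 with the input (SE 0.04, edgeR adjusted p = 0.0429). The 3 H3K27ac calls at Pou3f1, Zic2 and Zic5 were also made with the input.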

How the data were processed

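The 30 ChIP-seq lists come from 38 samples, 8 of them inputs (1 per genotype and experiment, shared by H3K27ac and H3K4me1). Per the labels and the study's methods, reads were trimmed (Trim Galore 0.6.6), aligned to GRCm38 (Bowtie2 2.4.4, SAMtools 1.15) and called per library against the input. The submitters' processing notes also name deepTools 3.5.1 and SICER 0.0.52. For 4 marks the authors deposited broad regions in steps of 200 bp with ChIP and input read counts and a p-value and FDR, and for H3K4me3 MACS2 2.2.7.1 peaks with fold enrichment and −log10 p and q values. Processing of H3K9me3 and the aligner for H3K27ac are not given in the sources used here. H3K27ac and H3K4me1 share an antibody in the labels, whereas the methods give H3K27ac its own. Reads exist only within calls, so sequence just under the threshold counts as 0.

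From these lists, covered bp, calls and ChIP read counts were taken for each protein-coding gene of GENCODE M21 with 5 kb on either side (Python 3.11.15, pandas 2.3.3, NumPy 2.4.6). ChIP read counts were tested with edgeR 4.0.16 (R 4.3.3, quasi-likelihood, offset for length of calls, TMM on length-scaled counts) over genes with a call in all 6 libraries, with Benjamini-Hochberg adjustment over all of them and a threshold of 0.05. The SE was derived from the F statistic and is approximate. Covered bp and fold enrichment were compared by two-sided exact permutation over 20 assignments. The text names all 10 genes, and of 16 other epiblast genes and 17 paralogues those past the threshold. The 10 genes and the lists were chosen with earlier results of these data known. Alternatives were DESeq2 1.42.0, other scalings, filters, windows and thresholds, an input offset, a replicate block and leaving out each library. On simulated H3K27ac counts over 14625 genes, the test called 44% of 50 genes changed by 0.3 and 98% of 50 changed by 0.5 on the log2 scale. The simulation used the observed call lengths and the same dispersion for every gene. Its shares therefore need not hold for genes that vary more between libraries.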

Additional observations from a re-analysis of the deposited data

How the results depend on the processing

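Of 413 values recomputed under the alternatives, 287 values of single genes kept their direction and their side of the threshold and 81 counts stayed within 1.5 times. For covered sequence and fold enrichment the side was fixed in advance, because the exact p cannot pass 0.05. At separated genes the direction could not turn with 1 library left out either, so the 287 are not a measure of stability. Counts of separated genes within 1 kb of the start were 0 for H3K4me3, H3K27me3 and H3K4me1 and 1 for H3K27ac, and over the gene body 0 for H3K27me3 and, for H3K4me3, 1 lower and 1 higher. A gene covered over the whole zone or body in all 6 libraries, as Pou3f1 was for H3K27me3, could not be separated. Leaving out 1 library gave 1 to 4 genes for H3K27me3 covered sequence and 2 to 6 for H3K4me3 fold enrichment. With 2 libraries against 3 groups separate more easily, so such counts can rise but cannot fall. The shares of all genes were not counted for the gene body or with 1 library left out. In the edgeR test, reads in the window gave 5 genes for H3K27ac, 3 for H3K4me1 and 1 for H3K27me3. Calls of like length gave 2 genes for H3K4me1, the input offset gave 2 for H3K4me1 and 1 for H3K27me3, and TMM factors from the counts as deposited gave 7 for H3K27ac. Signs turned for reads in the window at Sox4 H3K27me3 (-0.89), Sall2 H3K27ac (-1.96), Sall2 H3K4me1 (-0.54) and Cdh2 H3K4me1 (-0.30). They also turned, with no call in either form, at Fgf5, Otx2, Cdh2 and Sox3 for H3K27me3 and at Fgf5 and Sox3 for H3K4me1, so that the genes below 0 went from 3 to 8 of 10 for H3K27me3 and from 6 to 10 for H3K4me1. Cdh2 H3K4me1 was also -0.008 with library sizes alone, -0.053 with the input offset and from -0.009 to 0.048 with 1 library left out, and its covered sequence within 1 kb of the start was 333 bp higher in IκBα-KO (exact permutation p = 1.0). The cause was not tested.

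Same-numbered libraries did not deviate together from gene to gene (correlations -0.02 to 0.03). A shift of a whole library drops out of these correlations, so they cannot decide whether the numbers pair the libraries. With the replicate block, 2 of the 8 H3K27ac genes fell (Pou3f1 -0.23, edgeR adjusted p = 0.0786) and 639 genes rose and 156 fell over all genes. With the block 0 of 10 passed for H3K27me3 and for H3K4me1. Over all genes, DESeq2 called 197 of 9733 higher and 146 lower for H3K27me3, where edgeR called 1.05% and 0.524%. For H3K27ac DESeq2 called 551 genes lower, where edgeR called 346, the input offset 699, and fits without 1 library 152 to 203. For H3K4me1 the input offset called 1167 lower, where edgeR called 443, and fits without 1 library 258 to 297. No gene of the 10 entered the H3K9me3 test, so no alternative bears on it. The 3 clones per genotype limit the precision, since the exact tests cannot pass 0.05.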
